A study of Mus musculus with 2 samples.

Results

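The splice junctions of the mouse T cell receptor beta (Tcrb) and gamma (Tcrg) loci were described in thymus. They were all rows of the series' junction list that lie wholly on chromosome 6 between 40.8 and 41.55 Mb (Tcrb) or on chromosome 13 between 19.25 and 19.46 Mb (Tcrg) of the mm9 assembly. The rule found 3644 junctions of the 532115 in the list, of which 3552 were in Tcrb and 92 in Tcrg. The tissue was whole thymus from adult C57BL/6J mice of 8 weeks, littermates of mixed sex, with no treatment named. Polyadenylated RNA of over 200 nucleotides was sequenced as stranded read pairs of 76 bases in 2 libraries, biological replicates 1 and 2 of 1 group. The labels give 1 donor entry for both libraries, so their spread may be partly technical. The junction list was deposited once for both libraries together, so a junction has 1 read number. Each junction's name holds 2 entries, R1 and R2, that add up to the reads. No label ties R1 or R2 to a library, and they are given as the authors' values with no spread between samples.

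A T cell receptor gene is not complete in the germline. In developing thymocytes the Rag proteins cut the DNA beside V, D and J segments, and the ends are joined after bases have been trimmed and added. In Tcrb a D segment is joined to a J segment and then a V gene to the DJ unit; Tcrg has no D segments. The J segment stays separated from the constant (C) gene by an intron in the DNA, which splicing removes from the RNA. A V gene has a short leader exon and a V exon, with a small intron between them. A junction list of a receptor locus therefore mixes introns with gaps of genomic DNA that recombination deleted, and the list itself does not mark which is which. Rows were placed in classes by where their ends lie relative to annotated segments. The annotation was set on the list by intron lengths, strand and spacing, at which 72 introns matched in Tcrb and 16 in Tcrg, while the next best spacing matched 1 in each locus.

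The segments that carry the results are shown from the GENCODE transcripts of the GRCm38 assembly, 5′ to 3′ on the coding strand. The J segments with reads spliced to a constant gene are shown because their right edge is the splice donor and their left edge the recombination end. The first 6 bases, in capitals, are the most that the listed gaps of the middle 95% of V to J join reads passed over. They lie on chromosome 6, plus strand.
Trbj1-1: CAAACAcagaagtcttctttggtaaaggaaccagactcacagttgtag
Trbj1-2: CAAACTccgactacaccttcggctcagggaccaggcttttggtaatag
Trbj1-3: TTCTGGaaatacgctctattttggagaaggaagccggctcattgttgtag
Trbj1-4: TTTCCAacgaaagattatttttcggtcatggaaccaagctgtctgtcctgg
Trbj1-5: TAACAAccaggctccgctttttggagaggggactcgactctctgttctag
Trbj1-6: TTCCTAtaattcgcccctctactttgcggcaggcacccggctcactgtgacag
Trbj2-1: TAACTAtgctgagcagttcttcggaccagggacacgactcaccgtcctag
Trbj2-2: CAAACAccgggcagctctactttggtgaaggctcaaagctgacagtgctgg
Trbj2-3: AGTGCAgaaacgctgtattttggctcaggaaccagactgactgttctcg
Trbj2-4: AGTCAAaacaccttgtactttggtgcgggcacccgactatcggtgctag
Trbj2-5: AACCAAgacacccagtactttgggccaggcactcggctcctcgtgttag
Trbj2-7: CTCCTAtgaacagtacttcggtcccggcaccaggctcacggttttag

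The last 30 bases of the 4 V genes with most join reads follow, and then both D segments. In capitals are the last 7 bases of each V gene, the most that the listed gaps of the same share of reads passed over. All lie on chromosome 6, plus strand.
Trbv13-2: catcagtgtacttctgtgccagcGGTGATG
Trbv13-1: catctttgtacttctgtgccagcAGTGATG
Trbv16: agcggtgtatctttgtgcaagcaGCTTAGA
Trbv13-3: cagctgtatatttctgtgccagcAGTGATG
Trbd1: gggacagggggc
Trbd2: gggactgggggggc

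Exon 1 of the constant genes Trbc1 and Trbc2 is 375 bases long in each and differs at 1 base. Counted from the start of the exon, and with the Trbc1 base first, the difference is C260A, so the 259 bases before it and the 115 bases after it are the same in both genes. Exon 2 is 18 bases long and differs at 3 bases, G8A, T11C and C14T. Bases 240 to 279 of exon 1 and the whole of exon 2 are shown with the differing bases in capitals.
Trbc1 exon 1: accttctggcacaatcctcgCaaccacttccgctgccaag
Trbc2 exon 1: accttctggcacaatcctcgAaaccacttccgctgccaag
Trbc1 exon 2: actgtggGatTacCtcag
Trbc2 exon 2: actgtggAatCacTtcag

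The libraries held 49.3 and 63.1 M estimated fragments in the gene tables of replicates 1 and 2. All 11 thymocyte markers were at 10 TPM or more (a level scaled to transcript length and library total by the authors) in both libraries, led by the kinase gene Lck at 1327 and 1454 TPM. All 6 thymic epithelial markers also passed that level, and 1 of 3 B cell markers did (Cd79a). Of 6 gamma-delta T cell markers, which include 3 Tcrg constant genes, 1 reached it (Sox13) and 5 were at 1 TPM or more. Trbc1 was at 3420 and 3683 TPM and Trbc2 at 2908 and 3111 TPM, against 9.11 and 9.53 TPM for Tcrg-C1, 5.85 and 4.53 TPM for Tcrg-C2 and 4.14 and 3.20 TPM for Tcrg-C4. Of 15 genes of the receptor and its assembly, 11 were at 10 TPM or more in both libraries, among them the recombinase genes Rag1 (276 and 276 TPM) and Rag2 (35.0 and 44.0 TPM). The end-processing gene Dntt was at 308 and 284 TPM and the pre-T alpha chain gene Ptcra at 136 and 99.4 TPM. Trdc had no matching row and was not used here. These are levels in a mixed tissue, where the number of cells and the RNA per cell cannot be told apart.

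The Tcrb junctions held 228199 reads, 0.586% of the 38942671 reads of the whole list, and the Tcrg junctions 1545 reads, 0.00397%. Reads were concentrated in few rows: the 10 most read took 79.0% of the Tcrb reads and 71.2% of the Tcrg reads. The 10 most read rows of the whole list took 1.89%, but 10 rows are a far smaller part of its 532115 rows than of the 3552 and 92 rows of the loci. Only 172 Tcrb junctions (4.84%) had at least 10 reads, against 25.8% of the whole list, and those 172 held 97.0% of the locus's reads. In Tcrg 19 junctions (20.7%) reached 10 reads. Rows with 1 read were 1780 in Tcrb (50.1%) and 49 in Tcrg (53.3%), against 44.2% of the whole list. Both entries R1 and R2 were above 0 in 684 Tcrb rows (19.3%) and in 27 Tcrg rows (29.3%), against 36.7% of the whole list. R1 held 39.8% of the Tcrb reads and 42.7% of the Tcrg reads, against 44.2% of the reads of the whole list. No test of these shares was made, because the rows of a locus are not independent of each other.

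Tcrb rows were long. Gaps over 100 kb made up 2268 Tcrb junctions (63.9%), against 15.4% of the whole list, and the median gap was 380250 bases, against 1708 bases for the list. Of these 2268 long gaps, 2178 ran from a V gene's end to the start of a J or D segment. The flag C in the authors' names, whose meaning is not given in the sources used here, was 1 in 433 Tcrb rows (12.2%) and in 48 Tcrg rows (52.2%), against 55.6% of the whole list. Those 433 rows held 95.3% of the Tcrb reads. The flag A, likewise unexplained, was 1 in 59 Tcrb rows (1.66%) and 13 Tcrg rows (14.1%), against 31.4% of the whole list. The annotated introns found by spacing included all 59 of these Tcrb rows and 12 of these Tcrg rows.

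By class, the Tcrb reads lay mostly in the constant genes. Rows within Trbc1 or Trbc2 took 155142 reads in 132 rows, 68.0% of the locus's reads (exact Clopper-Pearson 95% interval 67.8 to 68.2%, here and below for counting error only, since reads without molecular identifiers are not independent molecules). J to C introns took 27170 reads in 18 rows, 11.9%, or 20634 reads with 1 row per J segment. The same reads may be listed at both constant genes, as described below, and all class shares and the locus's total count both rows. Gaps between the 2 constant genes took 21107 reads in 149 rows, 9.25%. Rows within V genes took 11756 reads in 75 rows, 5.15%. Recombination-like joins (V to J, D to J and V to D) were the reverse of these, with 2728 rows, 76.8% of the Tcrb junctions, and 5562 reads, 2.44% of the reads. Of the rest, 3566 reads had 1 end in a segment, 1572 reads lay in rows with no receptor segment at either end and no annotated gene at 1 or both ends, 1332 reads linked different V genes, and 519 reads lay in the other genes of the interval, which include trypsinogen genes such as Prss2.

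**Figure D1:**
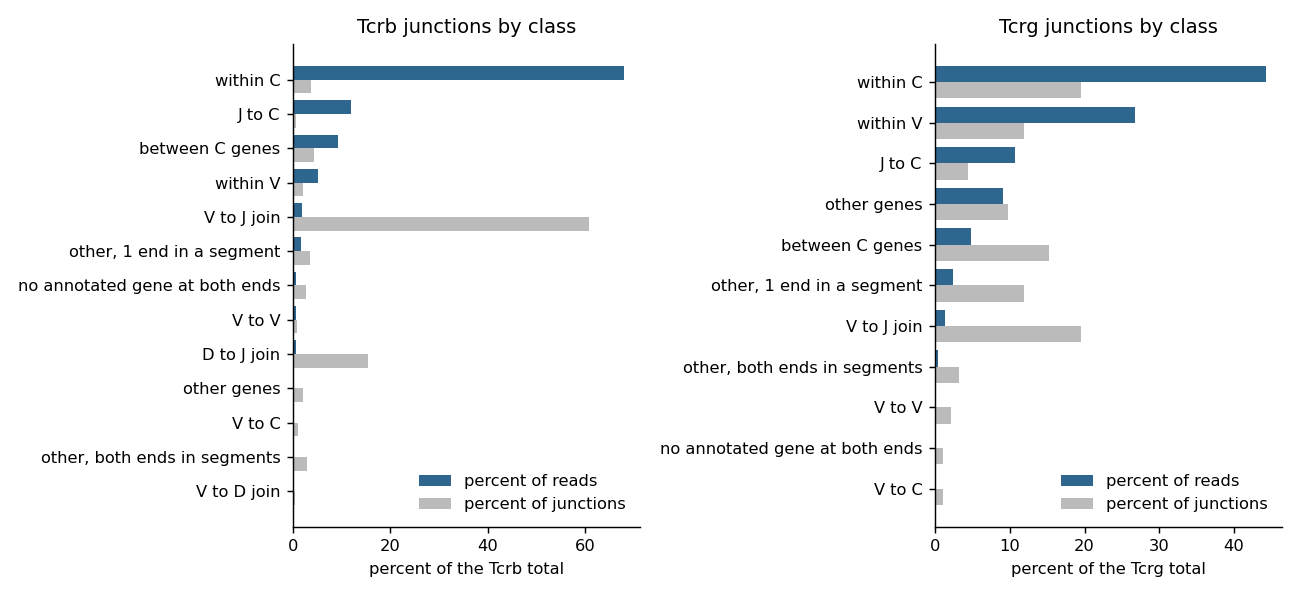
Share of reads (blue) and of junctions (grey) in each class, in percent of the Tcrb total (left) and of the Tcrg total (right). In Tcrb the within C class holds 68.0% of the reads and the V to J class most of the junctions; in Tcrg the within C class holds 44.3% of the reads.

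The constant genes Trbc1 and Trbc2 encode near-identical parts of the beta chain, and each had 3 annotated introns with reads. In Trbc2, intron 1 (chr6:41497104-41497608) had 32525 reads, intron 2 (chr6:41497627-41497770) 36408 reads and intron 3 (chr6:41497878-41498159) 12661 reads. In Trbc1, intron 1 (chr6:41488592-41489112) had 30526 reads, intron 2 (chr6:41489131-41489227) 31970 reads and intron 3 (chr6:41489335-41489643) 6817 reads. Intron 3 thus had fewer reads than introns 1 and 2 in each gene. Of the reads across intron 2, which starts at the exon that differs at 3 bases, Trbc1 took 46.8% (interval 46.4 to 47.1%).

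A row from exon 1 of Trbc1 to exon 2 of Trbc2 (chr6:41488592-41497608, 9017 bases) had 19429 reads, the fifth most of the locus. Rows with the donor in Trbc2 and the acceptor in Trbc1 had 4 reads in all. Since the last 115 bases of exon 1 are the same in both genes, a read of 76 bases that ends its left part there cannot tell the 2 copies of exon 1 apart. How the authors placed such reads is not given in the sources used here. The 32525 reads of Trbc2 intron 1 and these 19429 reads share an exon 2. The exon 1 side of the crossing read cannot tell them apart, and whether the other read of the read pair could was not tested.

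A recurrent gap of 66 bases lay inside exon 1, from base 163 to base 228 of the exon. It had 1563 reads in Trbc1, 1271 reads in Trbc2 and 1119 reads in a row that left Trbc1 and entered Trbc2 at the same exon positions. The gap lies within the first 259 bases of the exon, which are the same in both genes. A single read that stops before base 260 fits all 3 rows, so the same reads may be listed more than once. All 3 rows had the flag C at 0 and reads in both entries, with R1 and R2 at 634 and 929, at 540 and 731, and at 476 and 643.

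Splicing from J to C used 12 of the 14 annotated J segments. Trbj1-7 and Trbj2-6 had no J to C row, which allows a share of up to 0.0145% each when 3 counts of the total are taken as the limit of a count of 0, as for every such limit given here. Counting each J segment by its most read row, 20634 reads were left, of which the J2 cluster took 67.9% (14011 reads, interval 67.3 to 68.5%) and the J1 cluster 32.1% (6623 reads). Over the 12 segments the entry R1 held between 38.2% (Trbj1-6) and 46.7% (Trbj2-3) of a segment's reads. The J2 share was 68.4% in entry R1 and 67.5% in entry R2. The J1 cluster lies before Trbc1 and the J2 cluster between Trbc1 and Trbc2, so in genomic order a J2 segment has only Trbc2 after it.

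Among J2 segments, Trbj2-1 led with 3619 reads (17.5% of the J to C reads, interval 17.0 to 18.1%), from chr6:41492803-41496728. Trbj2-7 followed with 3084 reads (14.9%), Trbj2-3 with 2394 (11.6%), Trbj2-5 with 2237 (10.8%) and Trbj2-4 with 1783 (8.64%). Among the segments of the cluster with J to C reads, Trbj2-2 had the fewest, 894 (4.33%). The intervals of Trbj2-3 (11.2 to 12.05%) and Trbj2-5 (10.4 to 11.3%) overlapped, and those of the other neighbours in this order did not.

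Every J1 segment with J to C reads had a pair of rows, 1 into Trbc1 and 1 into Trbc2. Trbj1-4 had 1453 reads into Trbc1 and 1430 into Trbc2, Trbj1-6 had 1390 and 1364, and Trbj1-2 had 1239 and 1220. Trbj1-1 had 1123 reads into Trbc1 and 1115 into Trbc2, Trbj1-3 had 867 and 859, and Trbj1-5 had 551 and 548. The ratio of the Trbc2 row to the Trbc1 row lay between 0.981 and 0.995 for all 6 segments. The 259 identical bases at the start of exon 1 are longer than a read, so the right-hand part of a junction-crossing read fits both genes. The crossing read alone cannot tell the 2 rows of a pair apart, and the same reads may be listed in both rows. Whether the other read of the read pair could was not tested. With all 18 rows counted, the rows into Trbc1 held 24.4% of the J to C reads (interval 23.9 to 24.9%). With 1 row per J segment they held 32.1%. That is the J1 cluster share, because the most read row was the Trbc1 row for all 6 segments. As the crossing reads fit both genes, neither value measures entry into Trbc1.

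**Figure D2:**
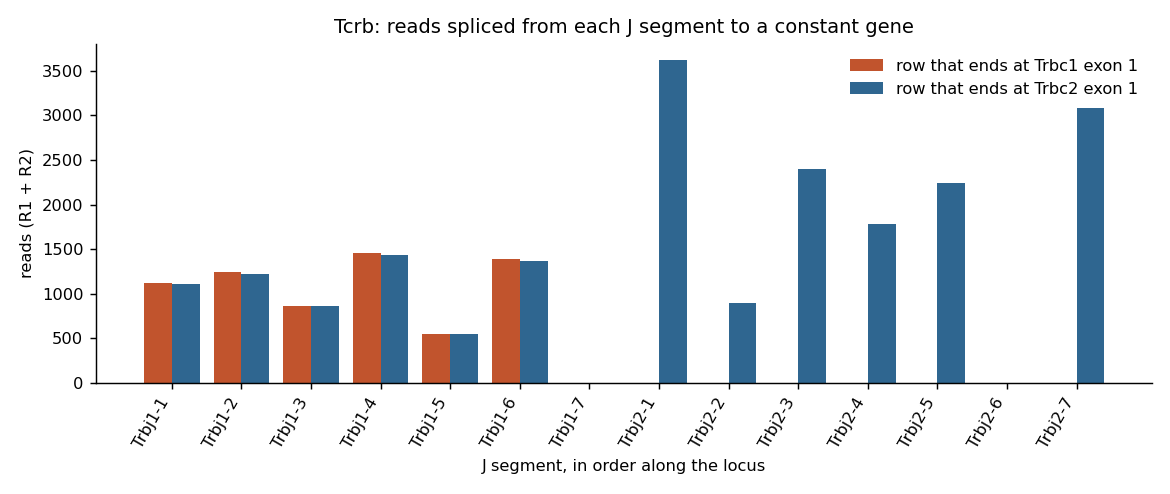
Reads of the rows that join each J segment to exon 1 of Trbc1 (orange) or Trbc2 (blue), R1 and R2 together, in order along the locus. Each J1 segment with J to C reads has 2 bars of nearly the same height, and Trbj2-1 (3619 reads) and Trbj2-7 (3084 reads) have the highest bars.

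An exon that the annotation lacks was used between the J1 cluster and Trbc1. It spans 72 bases (chr6:41487511-41487582). All 6 J1 segments with J to C reads also ran into it: Trbj1-6 with 159 reads, Trbj1-2 with 154, Trbj1-4 with 112, Trbj1-1 with 111, Trbj1-3 with 68 and Trbj1-5 with 68, and Trbj1-7 added 4 reads. Together these 676 reads were 9.26% of the J1 reads into this exon or Trbc1 (interval 8.61 to 9.95%), and over the 6 segments that also had J to C reads the share lay between 7.16% for Trbj1-4 and 11.1% for Trbj1-2. From the exon, 1038 reads ran on to Trbc1 and 1037 to Trbc2, again a near-equal pair. Each of these numbers exceeded the 676 reads listed from J1 segments into the exon, and why was not tested. An alternative exon between J1 and the C gene, called Cβ0, has been described in mouse beta transcripts; whether the exon seen here is the same was not tested.

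V genes supply most of the antigen-binding surface of the chain. Of 35 annotated Tcrb V genes, 22 had reads on introns inside the gene, each with at least 10, and 1 of these 22 (Trbv24) is annotated as a pseudogene. Trbv31, the only V gene that lies in the opposite orientation beyond Trbc2, held 3924 reads, 33.4% of the within-V reads (interval 32.5 to 34.2%). Its leader intron (chr6:41507984-41508327, minus strand) had 3317 of them. Trbv13-1 held 2135 reads (18.2%), Trbv14 held 1210 (10.3%) and Trbv13-3 held 922 (7.84%). Trbv16 held 499 reads (4.24%), Trbv19 held 450 (3.83%), Trbv20 held 341 (2.90%), Trbv13-2 held 310 (2.64%), Trbv15 held 308 (2.62%) and Trbv29 held 301 (2.56%). The other 12 V genes held 10 to 218 reads each. The 4 highest genes were separated by their intervals, while Trbv13-2, Trbv15 and Trbv29 were not.

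The same genes stood in another order in the gene tables, whose counts are for the whole V gene. Trbv31 took 17.7% ± 0.14 (SD, n = 2) of the V gene counts, and Trbv13-2, Trbv13-1 and Trbv1 took 13.5% ± 0.19, 13.4% ± 0.013 and 13.1% ± 0.43. Trbv16 took 10.5% ± 0.50. Trbv13-2, Trbv13-1 and Trbv1 differed in counts by less than the spread of Trbv1 between the libraries. By introns inside the gene Trbv13-2 came eighth, with 2.64%, which leaves out 912 reads listed from the Trbv12-2 leader to its V exon. Trbv1 held 13.1% of the counts but 1.37% of the within-V reads (161 reads). Trbv20 stood the other way, with 2.90% of the within-V reads and 0.419% ± 0.011 of the counts. Across the 22 genes with either value, Spearman's rho between within-V reads and mean counts was 0.79, a description across genes that share libraries. Trbv4 had no matching row in the gene tables.

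**Figure D3:**
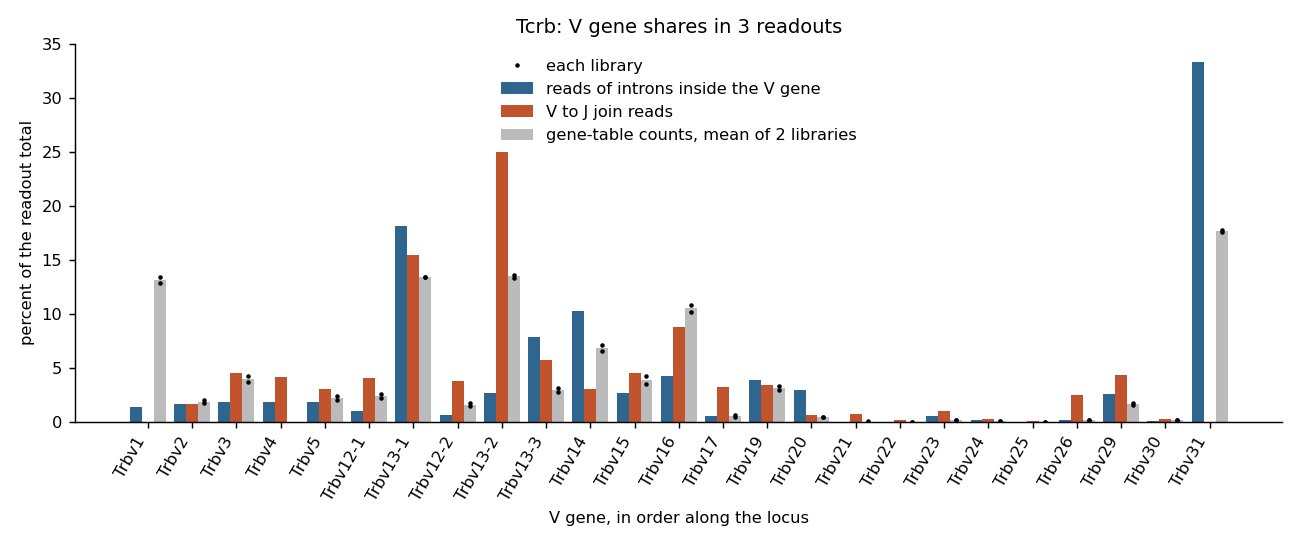
Share of each V gene in percent of 3 readouts: reads of introns inside V genes (blue), V to J join reads (orange) and gene-table counts (grey, mean of 2 libraries, with a dot for each library). Trbv31 is highest in the first and last, at 33.4% and 17.7%, and has no join reads; Trbv13-2 is highest among joins at 25.02%.

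Most reads at the V exon of Trbv13-2 were listed with the leader exon of another V gene. The donor of the Trbv12-2 leader exon had 1388 reads, of which 912 ran to the V exon of Trbv13-2 (chr6:41068942-41071537), 362 to the V exon of Trbv13-3 (chr6:41068942-41080290) and 69 to its own V exon. At the Trbv13-2 acceptor, 80.5% of 1136 reads came from Trbv12-2 (interval 78.1 to 82.8%) and 195 from its own leader. At the Trbv13-3 acceptor, 29.9% of 1210 reads came from Trbv12-2 (interval 27.3 to 32.6%), and 823 from its own leader. At the Trbv13-1 acceptor, 6 of 1934 reads came from a Trbv12 leader, that of Trbv12-1. The leader ends differ in part, and the bases they share lie mostly towards the donor. Whether short left-hand parts can tell the leaders apart was not tested. The V exons of Trbv13-2 and Trbv13-3 start with 28 identical bases, so short right-hand parts cannot tell these 2 V exons apart. The last 30 bases of the leader exons are shown with the bases that Trbv13-2 and Trbv13-3 share with Trbv12-2 in capitals (15 and 18 bases), and the first 30 bases of both V exons with the differing base in capitals.
Trbv12-2 leader: cttgggttgctctctttctcctgggaacaa
Trbv13-2 leader: tcTtcGTgctctcCagTCTCCTGtGttCAA
Trbv13-3 leader: tcTttGTgGtTtTgaTTCTCCTGtGtgCAA
Trbv13-2 V exon: aacacatggaggctgcagtcacccaaagCc
Trbv13-3 V exon: aacacatggaggctgcagtcacccaaagTc

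The 3 Trbv13 genes also had a second acceptor 21 or 22 bases before the annotated one. From the gene's own leader it took 207 reads in Trbv13-1, 9.73% of the own-leader reads of both acceptors (interval 8.50 to 11.1%). By the same count it took 97 reads in Trbv13-3 (10.5%, interval 8.63 to 12.7%) and 112 reads in Trbv13-2 (36.5%, interval 31.1 to 42.1%). These shares leave out reads from other leaders. At the annotated acceptor, Trbv12-2 gave 915 reads against 195 own-leader reads in Trbv13-2, and 362 against 823 in Trbv13-3. Trbv14 had such a row 18 bases before its acceptor with 11 reads, 0.913% of the pair. In Trbv31 the leader donor also ran 173 bases into the V exon with 403 reads (10.8% of the pair) and 177 bases into it with 100 reads.

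Before Trbv16 lay an intron that no annotated gene touches (chr6:41101228-41101621, 394 bases), with 1032 reads, against 498 reads on the leader intron of Trbv16. It was the most read of the 91 rows with no receptor segment at either end and no annotated gene at 1 or both ends, 84 of which had no annotated gene at either end, and its right end lies 117 bases before the annotated start of Trbv16. A like row of 63 reads (chr6:41088181-41090469) ended 717 bases before Trbv15. Beyond Trbv31, plus-strand rows that no gene annotates ran from chr6:41508614 to 41517048 (96 reads), from 41508614 to 41521621 (76 reads) and from 41521693 to 41534014 (63 reads).

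Some V genes were linked straight to the constant genes, without a J segment. The donor inside Trbv4 had 43 reads to Trbc1 and 43 to Trbc2, over 479 and 487 kb, the longest gaps of the locus with at least 10 reads. The Trbv14 leader had 25 reads to each constant gene and Trbv13-2 had 15 to each. Both rows of each of these pairs had the same R1 and R2, so the same reads may be listed at both constant genes. The third longest such gap was a Trbv13-1 to Trbj2-5 join of 427 kb with 10 reads.

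V to J joins were seen as 2162 rows whose left end lay within 15 bases of a V gene's 3′ end and whose right end lay within 15 bases of a J segment's 5′ end. They held 4288 reads, with 1 read in 1173 rows and 24 at most, and 289 rows had reads in both entries. The ends scattered around the segment edges. On the V side the middle 95% of the reads ran from 7 bases before the last V base to 9 bases after it, and 11.4% ended at it. On the J side they ran from 11 bases before to 6 bases after the J start, and 6.13% began at it. Bases between V and J that belong to no segment are not recorded in a junction list, so neither the D segment nor added bases can be read from these rows.

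The most read single join was Trbv13-2 to Trbj2-7 (chr6:41071832-41493804), with 24 reads, 14 in R1 and 10 in R2. It left V at its last base, ending the capitals printed above, and entered 4 bases before the J start. Of the 276 pairs possible among the 23 V genes and 12 J segments with joins, 241 were seen and 184 had reads in both entries. Trbv13-2 with Trbj2-7 had most, 269 reads in 65 rows, followed by Trbv13-2 with Trbj2-5 (152 reads), Trbv13-2 with Trbj1-6 (138) and Trbv13-1 with Trbj2-7 (131).

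By V gene, Trbv13-2 took 25.02% of the join reads (1073 reads), Trbv13-1 took 15.5% (664), Trbv16 took 8.82% (378) and Trbv13-3 took 5.69% (244). Trbv26 had 104 join reads but 22 within-V reads. Trbv17 had 136 join reads and 59 within-V reads. Trbv14 had 130 join reads and 1210 within-V reads. Among the 23 V genes with joins, 3 are annotated as pseudogenes: Trbv24 with 12 reads, Trbv22 with 7 and Trbv25 with 2. The remaining V genes with joins ranged up to 194 join reads, for Trbv3, followed by Trbv15 with 193 and Trbv29 with 187. Over the 24 plus-strand V genes with either value, Spearman's rho between within-V reads and join reads was 0.69, again as a description.

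Trbv1 and Trbv31 had 0 of the 4288 join reads, which allows a share of up to 0.0700%. In the germline order Trbv31 lies after the J segments and in the other orientation, so a row from its end to a J segment could not fit a collinear gap. Trbv1 lies 642 kb before the Trbj1-1 donor, and the longest gap listed in the locus was 521545 bases. The whole list holds 906 rows longer than that 642 kb, 6 of them on chromosome 6. Why Trbv1 had no join reads was not tested.

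By J segment, the join reads went to Trbj2-7 with 21.5% (924 reads, interval 20.3 to 22.8%), Trbj2-1 with 11.7%, Trbj1-6 and Trbj2-5 with 10.4% each and Trbj2-4 with 9.51%. The J2 cluster took 64.6% of the join reads (interval 63.2 to 66.1%), against 67.9% of the J to C reads. Trbj2-7 stood higher among joins (21.5%) than among J to C reads (14.9%), and Trbj2-1 lower (11.7% against 17.5%). Over the 12 segments Spearman's rho between the 2 readouts was 0.76. For the 15 V genes with at least 100 join reads, the J2 share of the joins lay between 53.7% for Trbv13-3 (interval 47.2 to 60.1%) and 76.5% for Trbv17 (interval 68.4 to 83.3%).

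**Figure D4:**
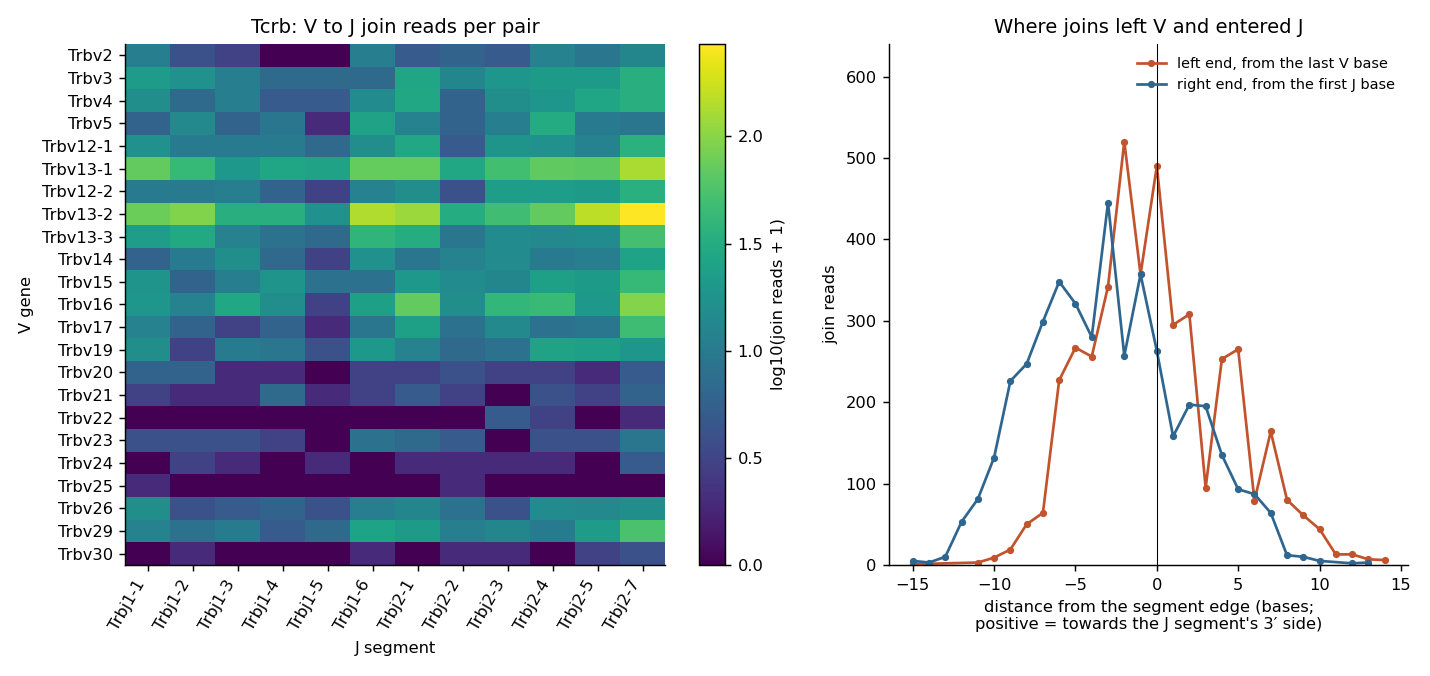
Left, join reads for each V gene (rows) and J segment (columns), coloured by log10(reads + 1); the brightest cell is Trbv13-2 with Trbj2-7, at 269 reads. Right, reads by the distance in bases of the join's left end from the last V base (orange) and of its right end from the first J base (blue), which centre on 0 and on 3 bases before the J start.

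D to J joins were 550 rows with 1252 reads. Trbd1, which lies before both J clusters, had 454 reads to J1 segments (36.3%, interval 33.6 to 39.0%) and 412 reads to J2 segments (32.9%, interval 30.3 to 35.6%). Trbd2, which lies between Trbc1 and the J2 cluster, had 386 reads to J2 segments (30.8%) and 0 to J1 segments, which it follows. By J segment, Trbj2-1 had 245 D to J reads, of which 94 came from Trbd1 and 151 from Trbd2, and Trbj2-7 had 234, of which 134 came from Trbd1 and 100 from Trbd2. In the J1 cluster Trbj1-2 had 154 and Trbj1-6 had 113, while Trbj1-5 had 2, the fewest of the 12 segments that are spliced to a constant gene. Trbj2-6, which had no J to C row, had 1 D to J read. V to D joins had 22 reads in 16 rows, none with reads in both entries.

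On the strand opposite to the annotated genes there were 14 Tcrb rows with 17 reads, 0.00750% of the reads in annotated genes (interval 0.00437 to 0.0120%). In Tcrg there were 2 such rows with 4 reads. None of these opposite-strand rows reached 10 reads in either locus. Rows with no annotated gene at either end were not counted here. Among them was a minus-strand row of 58 reads in the Tcrb interval (chr6:41147996-41150249).

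Tcrg encodes the gamma chain of gamma-delta T cells, and has 4 J segments, each followed by a constant gene. The sequences of its J segments are shown because 3 of them are near copies: Trgj3 differs from Trgj1 at 6 of 60 bases and Trgj2 at 4, in capitals. Trgj1, Trgj3 and Trgj4 lie on the plus strand of chromosome 13 and Trgj2 on the minus strand.
Trgj1: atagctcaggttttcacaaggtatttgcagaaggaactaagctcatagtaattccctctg
Trgj3: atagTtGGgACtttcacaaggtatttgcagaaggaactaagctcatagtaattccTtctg
Trgj2: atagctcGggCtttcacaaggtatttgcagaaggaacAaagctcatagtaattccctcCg
Trgj4: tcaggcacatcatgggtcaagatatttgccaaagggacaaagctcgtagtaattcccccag

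Tcrg reads lay in the constant genes (684 reads, 44.3%, interval 41.8 to 46.8%), in V genes (414 reads, 26.8%, interval 24.6 to 29.1%) and in J to C introns (165 reads, 10.7%, interval 9.18 to 12.3%). The neighbouring genes, chiefly Stard3nl, took 141 reads. The 4 J to C rows each joined a J segment to the constant gene that follows it. Trgj1 to Tcrg-C1 (chr13:19302272-19305971) had 83 reads, 50.3% of the J to C reads (interval 42.4 to 58.2%). Trgj2 to Tcrg-C2 (chr13:19399421-19403113, minus strand) had 43 reads, 26.1% (interval 19.5 to 33.5%). Trgj4 to Tcrg-C4 (chr13:19434082-19436426) had 32 reads, 19.4% (interval 13.7 to 26.3%), which overlaps the interval of Trgj2. Trgj3 to Tcrg-C3 (chr13:19349046-19352753) had 7 reads, 4.24%.

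Within the constant genes, Tcrg-C1 had 261 reads, Tcrg-C4 217, Tcrg-C2 203 and Tcrg-C3 3. The most read Tcrg junction was an intron of Tcrg-C1 (chr13:19307778-19308344) with 178 reads. From the same left end 59 reads were listed as running 47.3 kb on to Tcrg-C3 (chr13:19307778-19355123), the longest gap of the locus with at least 10 reads. Whether such reads can tell the exons of Tcrg-C1 and Tcrg-C3 apart was not tested. The estimated counts of both genes were fractional, at 96.68 and 139.62 for Tcrg-C1 and 2.32 and 9.38 for Tcrg-C3 in replicates 1 and 2. In Tcrg-C2 an unannotated row that passes over an exon (chr13:19397072-19399090) had 112 reads, against 61 and 22 reads on the introns on either side of that exon. In Tcrg-C4, introns of 1826, 4648 and 740 bases had 115, 51 and 45 reads.

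Of 7 Tcrg V genes, 3 held nearly all within-V reads. Tcrg-V1 had 170 reads (41.1%, interval 36.3 to 46.0%), 169 of them on its leader intron (chr13:19431928-19432019). Trgv2 had 150 reads (36.2%, interval 31.6 to 41.1%) and Tcrg-V4 had 88 (21.3%, interval 17.4 to 25.5%). Tcrg-V7 had 5 reads and Tcrg-V5 had 1. Tcrg-V3 and Tcrg-V6 had 0 of the 414 reads, which allows a share of up to 0.725% each. The order differed in the gene tables, where Tcrg-V4 had 32 and 47 estimated counts in replicates 1 and 2, Trgv2 had 9 and 17, and Tcrg-V1 had 5 and 5.

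V to J joins in Tcrg were 18 rows with 20 reads, over 4 pairs. Trgv2 to Trgj2 had 10 reads in 8 rows, Tcrg-V4 to Trgj1 had 4 reads, and Tcrg-V1 and Tcrg-V3 to Trgj4 had 3 reads each, although Tcrg-V3 had no within-V read. The 3 rows of each gene have the same J ends and the same read entries, and the last 104 bases of the Tcrg-V1 and Tcrg-V3 transcripts are identical, so the same reads may be listed at both genes and these joins cannot be assigned to one of them. Both sets are included in the counts of joins. None of the 18 rows had reads in both entries. Their ends lay from 8 bases before to 2 bases after the V end and from 5 bases before to 3 bases after the J start.

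**Figure D5:**
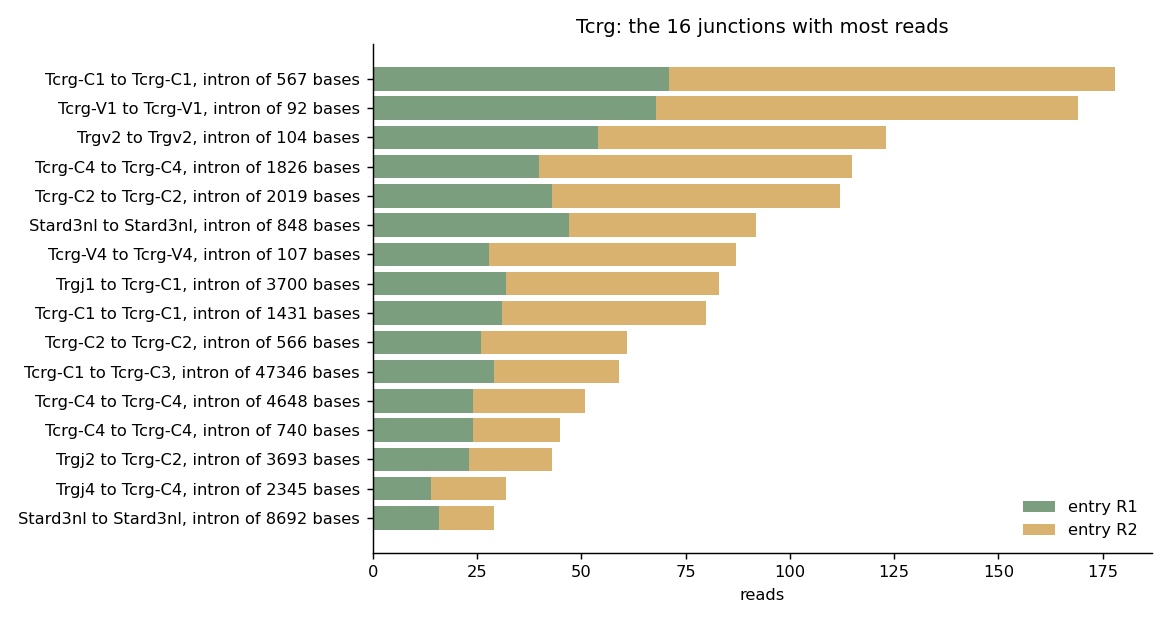
Reads of the 16 Tcrg junctions with most reads, split into the authors' entries R1 (green) and R2 (yellow), with the genes at both ends and the intron length in bases. The bars run from 178 reads for a Tcrg-C1 intron to 29 reads for Stard3nl.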

How the data were processed

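The deposited junction list on mm9 gives whole read counts per junction over both libraries together. It has no header, so the meaning of its columns was read from the values. R1 and R2 added up to the reads in all 532115 rows. The deposited list also holds a reproducibility value as a fraction from 0 to 1 and a display score; the score was not used. The deposited gene tables, on mm10 with annotation M4 per the text files deposited with them, give estimated counts and TPM per library, both by the authors. No aligner or quantifier is named (not given in the sources used here). In these tables the J segments have an effective length and a count of 0. Genes were matched by identifier without version to GENCODE M21.

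Rows were classified with Python 3.11.15 scripts against GENCODE M21, placed on the list by exact intron length, strand and a single spacing per locus; no coordinates were converted, and printed ones are mm9, counted from 1. The placing was tested on simulated rows. A gene's span was widened by 30 bases, and joins ended within 15 bases of V and J edges. Shares have exact Clopper-Pearson 95% intervals. There is 1 group, so no test between groups was made. The members and gene lists were chosen with earlier results of these data known. The named junctions were the 10 most read of each locus, every J to C row, V genes with at least 10 within-V reads (the 10 highest with values), the 3 longest gaps with at least 10 reads and opposite-strand rows with at least 10 reads; the unannotated exon, second acceptors, leader exchanges, V to C rows, exon 1 gaps and rows with fewer reads were chosen after their values were seen.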

Additional observations from a re-analysis of the deposited data

How the results depend on the processing

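Keeping only rows with at least 10 reads left 172 Tcrb and 19 Tcrg junctions, keeping only reproducibility values of at most 0.1 left 258 and 22, and keeping only introns of at most 50 kb left 1268 in Tcrb (and 80 in Tcrg, within 1.5 times of all rows). The within C share of the Tcrb reads was then 69.9%, 69.8% and 69.4% and that of the Tcrg reads 46.9% with at least 10 reads. Beside the Trbc1 share of J to C reads, another quantity was set, the Trbc1 share of reads on annotated introns inside the constant genes. It was 45.9%. In alternatives chosen after seeing the data, the Trbc1 share of J to C reads was 32.1% with the most read acceptor of each J segment, which is the J1 cluster share. The Trbc1 share of reads on exon 2 to exon 3 introns, again another quantity, was 46.8%. The Trbj2-1 share was 13.3% with all J to C rows counted, also chosen after seeing the data. The Trbv31 share of within-V reads was 31.3% with 1 junction per V gene; it was 17.8% and 17.6% in counts and 15.02% and 14.8% in TPM of the V genes in replicates 1 and 2. The mean Trbv31 share of V gene counts was 14.9% in TPM, and lay between 17.6% and 17.8% without either replicate. Set beside its share of J to C reads, the Tcrg-C1 share of reads inside the constant genes, also another quantity, was 38.2%. Among rows with an annotated gene at an end, the opposite-strand share in Tcrb was 0% with at least 10 reads and 0% by reproducibility. In all, 23 of 53 alternative values stayed within the interval, spread or 1.5-fold range of the reported one; the cause of the others was not tested, beyond the fewer rows or other readout of each. Windows of 10 and 20 bases gave 2041 and 2164 V to J joins.

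J segment counts or TPM gave no share, since these genes are listed at 0, and leaving out a library from the junction list was not run, since no entry is tied to a library. No paired analysis was possible because there is 1 group. The Tcrg J to C shares rest on 165 reads.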
